A study of Mus musculus with 8 samples.

Results

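Slc41a1, Man2a2, Trh, Asprv1, Prelid1, Tapbpl and Hmmr are 7 of the 19938 genes measured in mouse round spermatids of 4 Miwi genotypes. They were chosen by their intensities: their transcripts were much higher in both MIWI -/- and MIWI -/KI spermatids than in MIWI +/- spermatids, and the question was where MIWI +/KI spermatids lie between these ends. Each gene was read on the transcript cluster (the set of array probes summarised to 1 value) that carries its symbol alone and has the highest mean over the arrays. Because measured values chose the genes, all their differences from MIWI +/- are given as a description, with no test. The difference between MIWI -/KI and MIWI -/- was not itself used in the choice and was tested. Choosing genes high in both genotypes still limits how far apart these can lie.

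Round spermatids are the haploid germ cells formed by meiosis, before the nucleus condenses and the sperm tail is built. MIWI, encoded by Piwil1, is a PIWI protein of spermatocytes and round spermatids that is guided by piRNAs, and PIWI proteins with catalytic activity cut RNAs that pair with their piRNAs. Mice without MIWI are sterile, with spermatids that stop developing at the round stage. The 7 genes belong to no common pathway: they encode a magnesium transporter, a Golgi enzyme, a hormone precursor, a protease, a mitochondrial lipid carrier, a chaperone of antigen presentation and a spindle protein.

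Total RNA came from adult C57BL/6 testes, from cells separated on an albumin gradient, and was hybridised to Affymetrix arrays. In MIWI -/- both Miwi alleles were null. In MIWI -/KI a knock-in allele stood opposite a null allele, in MIWI +/KI it stood opposite the wild-type allele, and MIWI +/- had wild-type opposite null. Spermatids with only wild-type alleles were not analysed here. The change made in the knock-in allele, and whether a preparation pooled several animals, are not given in the labels, though the study's title concerns catalysis by MIWI and LINE1 silencing. Each genotype had 2 arrays, labelled biological replicates 1 and 2.

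Array medians lay between 66.6 and 71.8 intensity units, and arrays of 1 genotype correlated at r of 0.970 to 0.995 across clusters, against 0.960 to 0.988 between genotypes. Piwil1 itself read 196 and 151 in MIWI -/-, 672 and 696 in MIWI -/KI, 680 and 749 in MIWI +/KI, and 389 and 371 in MIWI +/- spermatids. Relative to MIWI +/-, it fell by 1.14 log2 units in MIWI -/- (adjusted p = 0.00771 in limma) and rose by 0.85 in MIWI -/KI (adjusted p = 0.0275 in limma). The difference of 0.91 in MIWI +/KI did not pass (adjusted p = 0.114 in limma). Its unadjusted p in limma was 0.000615, against 0.000958 for the difference in MIWI -/KI. Where the probes lie relative to the disrupted part of the gene is not known from the labels. The 17 round spermatid markers summed to 20692 to 21302 in MIWI -/-, 20220 to 22842 in MIWI -/KI, 20027 to 21459 in MIWI +/KI and 21698 to 22164 in MIWI +/-. Their sum was thus of similar size in every genotype, though a sum weighs bright genes most and single markers differed, as given below.

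RefSeq promoter windows (GRCm38.p6, 250 bases before to 50 after a gene's start) were matched for 5 of the 7 genes by symbol, and Man2a2 and Tapbpl are named only. The windows were searched on both strands for TGACGTCA (the full cAMP response element, read in spermatids by the factor CREM), its core TGACG, which the full element contains, CAACTG (a core bound by MYB proteins, of which A-MYB acts in meiotic germ cells) and GTTGCC (part of the site of RFX factors). The windows of Asprv1 and Hmmr, which share the graded pattern, held no match and are not shown. The 3 windows that hold the core TGACG are shown as the 250 bases before the start. Capitals mark TGACG or its complement CGTCA, and in Slc41a1 also CAGTTG, the complement of the MYB core. They lie at chr1:131827762-131828011 on the plus strand (Slc41a1), chr6:92244651-92244900 on the minus strand (Trh) and chr13:55321805-55322054 on the plus strand (Prelid1), and each is written 5′ to 3′ along its gene.
Slc41a1: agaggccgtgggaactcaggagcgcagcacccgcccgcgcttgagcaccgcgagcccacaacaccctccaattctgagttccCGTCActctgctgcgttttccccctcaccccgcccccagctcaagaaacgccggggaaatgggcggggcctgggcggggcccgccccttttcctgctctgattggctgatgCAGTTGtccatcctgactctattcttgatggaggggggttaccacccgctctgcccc
Trh: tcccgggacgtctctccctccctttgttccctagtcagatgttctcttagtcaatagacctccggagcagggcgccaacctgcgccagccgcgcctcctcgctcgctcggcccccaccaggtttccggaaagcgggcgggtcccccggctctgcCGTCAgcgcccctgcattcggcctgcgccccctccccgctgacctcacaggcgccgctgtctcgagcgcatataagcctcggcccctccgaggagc
Prelid1: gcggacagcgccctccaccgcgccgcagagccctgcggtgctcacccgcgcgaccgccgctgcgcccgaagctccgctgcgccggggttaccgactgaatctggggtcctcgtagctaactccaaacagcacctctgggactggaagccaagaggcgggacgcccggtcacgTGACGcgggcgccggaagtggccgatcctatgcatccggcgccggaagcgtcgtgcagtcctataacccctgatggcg

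The core TGACG began at position -168 from the start in Slc41a1, -96 in Trh and -78 in Prelid1, and the MYB core at -57 in Slc41a1. TGACG was in 3 of the 5 windows of these genes and in 20.8% of all 32851 windows. CAACTG was in 1 of 5 and in 13.7% of all windows. The full element TGACGTCA (1.79% of all windows) and GTTGCC (12.5%) were in none of the 5. A match is a match of letters, and with 5 windows these counts describe the genes and test nothing.

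Slc41a1 encodes a magnesium transporter of the cell membrane. Its intensity was 547 and 1043 in MIWI -/-, 561 and 519 in MIWI -/KI, 324 and 362 in MIWI +/KI, and 88.6 and 114 in MIWI +/- spermatids. MIWI -/- and MIWI -/KI arrays overlapped each other, MIWI +/KI lay below all of them, and MIWI +/- lay below every other array. MIWI -/KI minus MIWI +/KI was 0.66 log2 units, with a limma 95% interval of -0.01 to 1.33. Mean intensity was 795 ± 351 in MIWI -/-, 540.4 ± 29.7 in MIWI -/KI, 343 ± 27.0 in MIWI +/KI and 102 ± 18.2 in MIWI +/- (SD, n = 2 each). On the log2 scale the differences from MIWI +/- were 2.91 in MIWI -/-, 2.42 in MIWI -/KI and 1.76 in MIWI +/KI (SE 0.29 each). Of the 7 genes it was the one with the largest difference in MIWI +/KI, and its MIWI -/- arrays were also the farthest apart.

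Man2a2 encodes alpha-mannosidase IIx, a Golgi enzyme that trims mannose from N-glycans and whose loss makes male mice infertile. Its intensity was 995 and 1169 in MIWI -/-, 904 and 735 in MIWI -/KI, 314 and 313 in MIWI +/KI, and 227 and 203 in MIWI +/- spermatids. No genotype overlapped another, and the order was MIWI -/-, MIWI -/KI, MIWI +/KI and MIWI +/-, high to low. Differences from MIWI +/- were 2.33 log2 units in MIWI -/-, 1.92 in MIWI -/KI and 0.54 in MIWI +/KI (SE 0.17 each).

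Trh encodes the precursor of thyrotropin-releasing hormone, a peptide best known from the hypothalamus and also made in the testis. Its intensity was 302 and 513 in MIWI -/-, 498 and 326 in MIWI -/KI, 151 and 128 in MIWI +/KI, and 87.8 and 79.4 in MIWI +/- spermatids. MIWI -/- and MIWI -/KI each had a high and a low array and overlapped, while MIWI +/KI lay clear of both these genotypes and MIWI +/-. The log2 differences from MIWI +/- were 2.24 in MIWI -/-, 2.27 in MIWI -/KI and 0.74 in MIWI +/KI (SE 0.29 each).

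Asprv1 encodes an aspartic protease related to those of retroviruses, known from the outer layers of the epidermis. Its intensity was 357 and 310 in MIWI -/-, 407 and 311 in MIWI -/KI, 143 and 104 in MIWI +/KI, and 70.6 and 71.2 in MIWI +/- spermatids. The MIWI +/- arrays lay at the array median, and the table has no detection call, so whether they exceed background signal is not known. The log2 differences from MIWI +/- were 2.23 in MIWI -/-, 2.33 in MIWI -/KI and 0.78 in MIWI +/KI (SE 0.21 each). MIWI -/- and MIWI -/KI overlapped, and the other genotypes did not overlap with them or with each other. The MIWI +/- arrays of Trh, Tapbpl and Slc41a1 lay little above the median, between percentiles 54.1 and 63.7 of all clusters. Whether these exceed background signal is not known either.

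Prelid1 encodes a carrier that moves phosphatidic acid between the mitochondrial membranes, for cardiolipin synthesis. Its intensity was 765 and 876 in MIWI -/-, 629 and 542 in MIWI -/KI, 268 and 287 in MIWI +/KI, and 185 and 173 in MIWI +/- spermatids. As for Man2a2, no genotype overlapped another and MIWI -/- was highest. Its log2 differences from MIWI +/- were 2.19 in MIWI -/-, 1.71 in MIWI -/KI and 0.63 in MIWI +/KI (SE 0.16 each). A second cluster of the symbol read 857 and 1011 in MIWI -/-, 617 and 512 in MIWI -/KI, 218 and 241 in MIWI +/KI, and 176 and 170.1 in MIWI +/-, the same order of genotypes. Whether it reads a near-identical copy of the gene was not examined.

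Tapbpl encodes TAPBPR, a chaperone that edits the peptides loaded on MHC class I molecules. Its intensity was 372 and 409 in MIWI -/-, 410.01 and 357 in MIWI -/KI, 140.1 and 118 in MIWI +/KI, and 86.4 and 84.1 in MIWI +/- spermatids. MIWI -/- and MIWI -/KI overlapped and MIWI +/KI lay nearer to MIWI +/-. Differences from MIWI +/- were 2.19 log2 units in MIWI -/-, 2.17 in MIWI -/KI and 0.59 in MIWI +/KI (SE 0.16 each).

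Hmmr encodes a hyaluronan receptor that also binds microtubules and helps to build the spindle. Its intensity was 422 and 348 in MIWI -/-, 507 and 882 in MIWI -/KI, 195 and 236 in MIWI +/KI, and 139 and 129 in MIWI +/- spermatids. Unlike in the other genes with separate genotypes, MIWI -/KI was the highest, mostly through its replicate 2. The log2 differences from MIWI +/- were 1.52 in MIWI -/-, 2.32 in MIWI -/KI and 0.68 in MIWI +/KI (SE 0.26 each). These arrays are bulk samples, in which fewer cells of a type and less RNA per cell cannot be told apart.

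**Figure D1:**
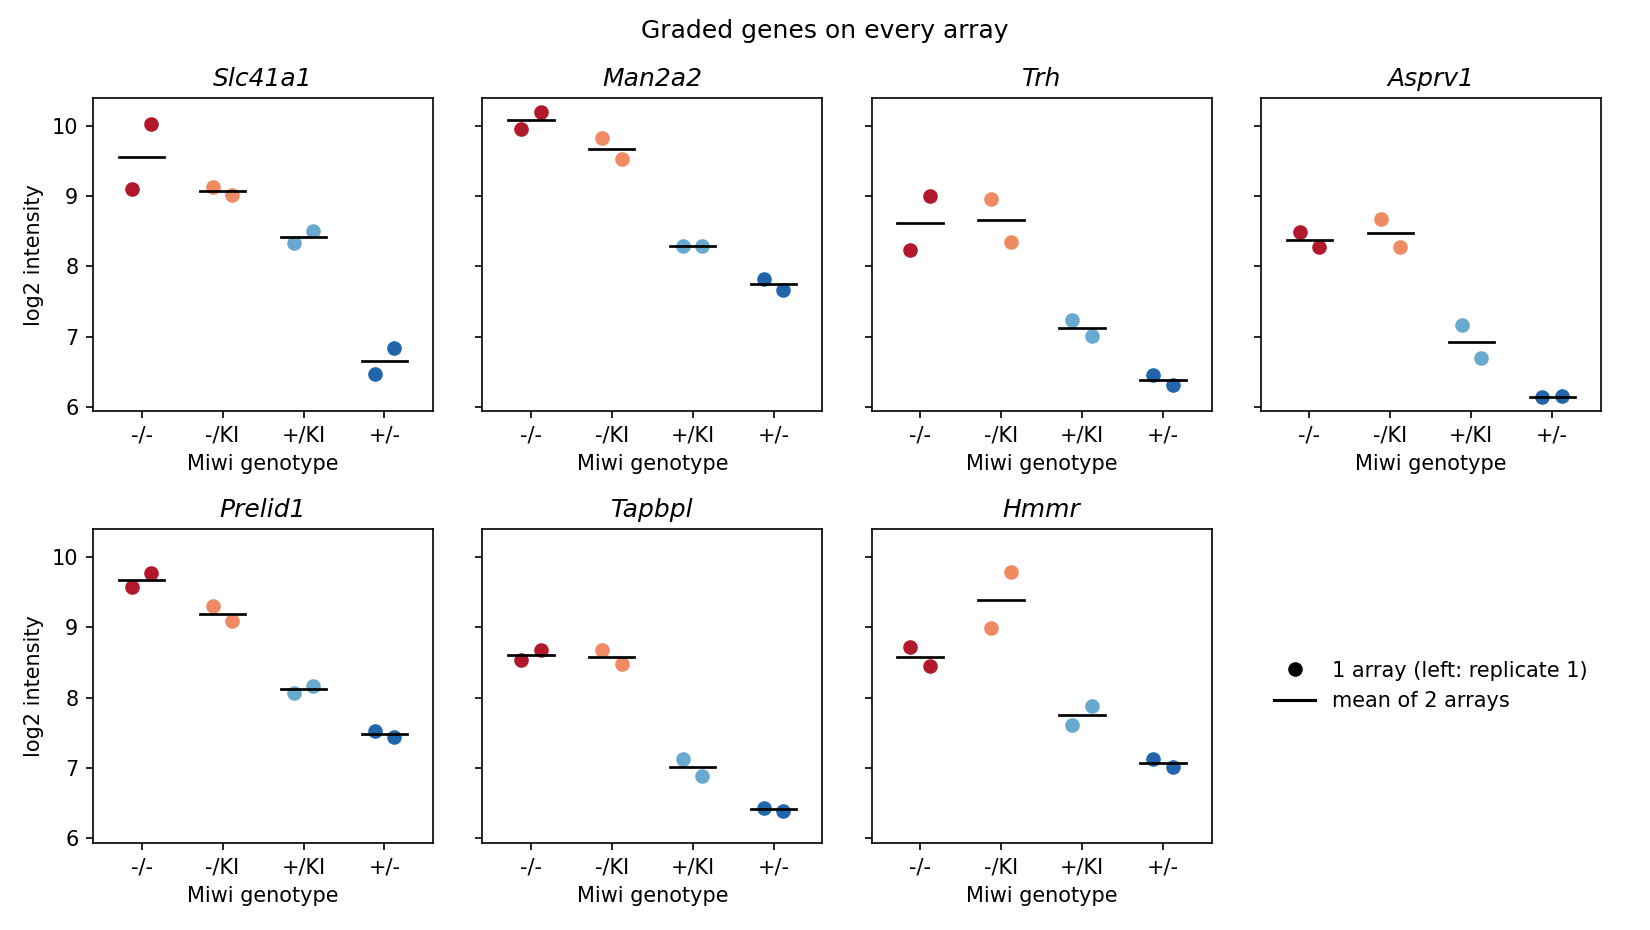
Log2 intensity of the 7 genes on every array, by Miwi genotype, with a point per array and a line at the genotype mean. In every gene the MIWI +/KI points lie above the MIWI +/- points and below all MIWI -/- and MIWI -/KI points.

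All 7 genes had every MIWI +/KI array above both MIWI +/- arrays and below all 4 arrays of MIWI -/- and MIWI -/KI, an order held by 4.13% of all genes, while 3.63% held its mirror image, with MIWI +/- highest. The choice of genes used most of that order, so nothing is read from the count.

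The place of MIWI +/KI was measured as a share of the log2 distance between MIWI +/- (0%) and the mean of MIWI -/- and MIWI -/KI (100%). It was 66.2% for Slc41a1, where the MIWI +/KI arrays alone gave 63.2 and 69.2%. The other genes lay lower, at 25.6% for Man2a2 (arrays 25.5 and 25.7%), 27.3% for Tapbpl (21.7 and 32.9%), 32.5% for Prelid1 (29.9 and 35.0%), 32.6% for Trh (27.5 and 37.8%), 34.3% for Asprv1 (24.1 and 44.5%) and 35.5% for Hmmr (28.2 and 42.8%). The ranges of these 6 genes overlap in part, and none reaches that of Slc41a1. With a gene's clusters averaged, the place for Prelid1 was 25.9%, below the values of its arrays. On the linear intensity scale, added after seeing the data, the shares were 42.6% for Slc41a1 and 13.3 to 20.1% for the others.

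The same measure was taken in the 160 genes that limma called at least 2-fold higher in both MIWI -/- and MIWI -/KI, the 7 included. Their median place was 35.9%, with quartiles of 18.2 and 53.2%, against a median of 32.6% in the 7 genes. Every array was ordered in 128 of the 160 (80.0%), and MIWI +/KI was at or under MIWI +/- in 10. Slc41a1 stood at the 89.4th percentile of these genes and the other 6 between the 35.0th and the 49.4th. By the lesser of their rises in MIWI -/- and MIWI -/KI, 1.52 to 2.42 log2 units, the 7 genes ranked between 7 and 42 among all genes.

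**Figure D2:**
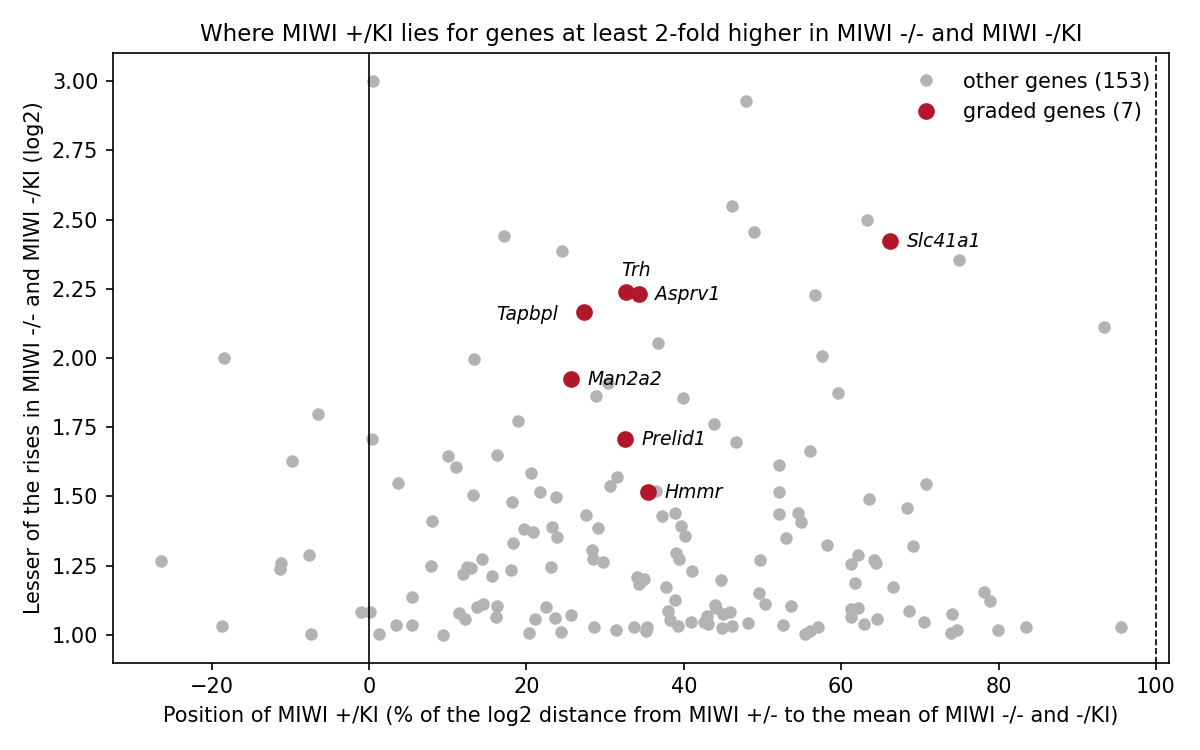
Each point is a gene at least 2-fold higher in MIWI -/- and MIWI -/KI, with the place of MIWI +/KI (% of the log2 distance from MIWI +/- to the mean of MIWI -/- and MIWI -/KI) on the x axis and the lesser of those rises (log2) on the y axis. Red points are the 7 genes, of which Slc41a1 at 66.2% stands to the right of the other 6 at 25.6 to 35.5%.

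Between MIWI -/KI and MIWI -/-, no gene of the 7 passed limma's test after Benjamini-Hochberg adjustment over all clusters (adjusted p = 0.998 for each), and 0.0% of all genes did, with 908 at unadjusted p under 0.05. Hmmr was 0.80 log2 units higher in MIWI -/KI (95% interval 0.19 to 1.41), Prelid1 differed by -0.49 (-0.85 to -0.13) and Man2a2 by -0.40 (-0.79 to -0.02). These are the 3 genes whose arrays of both genotypes did not overlap, a separation seen in 22.8% of all genes. The second Prelid1 cluster differed by -0.73 (adjusted p = 0.998 in limma). Piwil1, which is outside the 7, differed by 1.99 (1.61 to 2.38) in the same comparison. It did not pass either (adjusted p = 0.0816 in limma), so even a difference of that size in the targeted gene was not called.

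For Slc41a1 the difference was -0.48 with an interval of -1.15 to 0.18, which spans more than a 2-fold decrease. Trh (0.03, -0.64 to 0.70), Asprv1 (0.10, -0.39 to 0.59) and Tapbpl (-0.03, -0.41 to 0.35) had differences near 0. The intervals of Trh, Asprv1 and Tapbpl each reach about 0.35 log2 units or more to either side. With 2 arrays a genotype the test does not show that MIWI -/KI and MIWI -/- are alike for any of the 7. Small differences are also favoured by the choice of genes high in both genotypes, so no likeness is read from them.

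**Figure D3:**
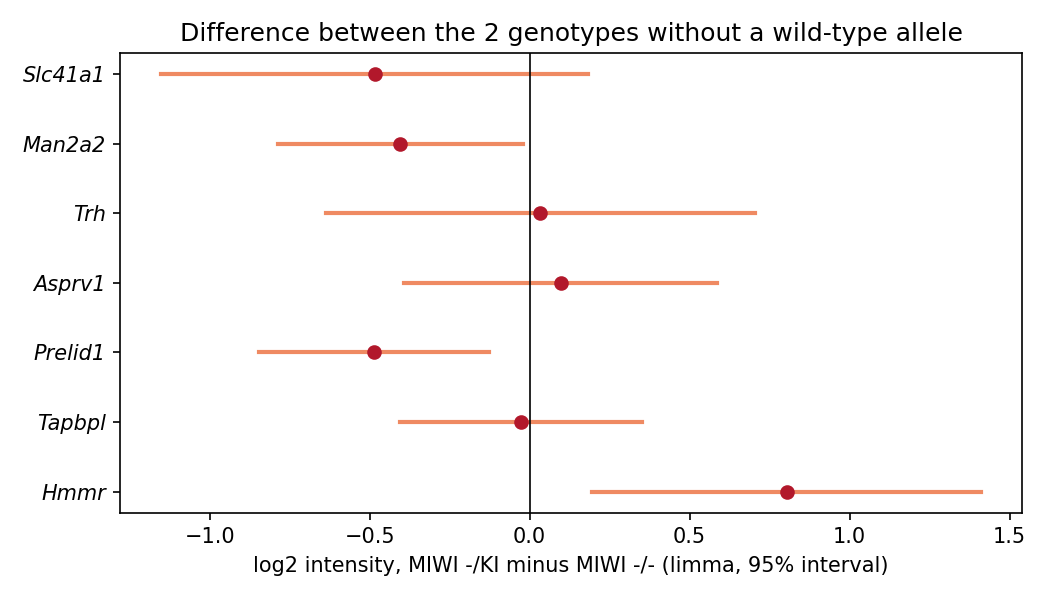
The log2 difference of MIWI -/KI minus MIWI -/- for the 7 genes, as points with limma's 95% intervals. The intervals of Man2a2, Prelid1 and Hmmr leave out 0, Hmmr on the higher side at 0.80, and none of the 7 passes after adjustment.

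Over the 8 arrays the log2 values of Man2a2, Trh, Asprv1, Prelid1 and Tapbpl correlated with each other at r of 0.955 to 0.996, highest for Man2a2 with Prelid1. Slc41a1 correlated with these 5 at 0.882 to 0.926 and Hmmr at 0.816 to 0.887, and Slc41a1 with Hmmr at 0.769. All points share the 8 arrays and the difference between genotypes, so these values describe the pattern only. Slc41a1 and Hmmr are thus the genes whose patterns depart most from the rest. Slc41a1 had the highest place of MIWI +/KI. The Hmmr rise in MIWI -/- was 1.52 log2 units, against 2.19 to 2.91 in the others. Which genotype made either pattern depart was not tested.

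Likeness was sought among 2462 genes that varied by at least 1 log2 unit. Symbols that start with LOC or with Gm and a digit, or end in Rik, were left out of these. The closest to Slc41a1 over the 8 arrays were Prdm4 (r = 0.997), Megf9 (0.996) and Stk32b (0.992). Closest to Hmmr were Mtrr (0.992), Trmt1l (0.988) and Manea (0.987), the last an endomannosidase of the N-glycan list. Man2a2 and Prelid1 were closest to each other and then both to Gml and Aldh9a1 (0.989 to 0.992). Trh and Tapbpl shared Edem1 (0.986 and 0.993), with Tmem170b (0.985) and Cyb5d2 (0.991) beside them, and Asprv1 was closest to Map2k3os (0.991), Tapbpl (0.991) and Tex101 (0.989). These 13 genes outside the 7 were picked for following genes that are high in MIWI -/- and MIWI -/KI, so nothing is read from their own differences.

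The genes lie on chromosomes 1 (Slc41a1), 6 (Asprv1, Trh and Tapbpl), 7 (Man2a2), 11 (Hmmr) and 13 (Prelid1). Of their 14 nearest measured protein-coding neighbours, 1 on each side, none was called against MIWI +/- in limma, beside 6.13% of all genes in MIWI -/-, 6.23% in MIWI -/KI and 0.0953% in MIWI +/KI. The neighbours' log2 differences from MIWI +/- had a median of 0.15 in MIWI -/- (range -0.21 to 0.70), 0.04 in MIWI -/KI (-0.31 to 0.68) and 0.09 in MIWI +/KI (-0.23 to 0.52). The 7 genes differed by 1.52 to 2.91 in MIWI -/-.

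Other genes of each pathway were measured from lists chosen with earlier results of these data known. Over all genes, limma called 2.6% higher and 3.53% lower in MIWI -/-, and 3.11% higher and 3.12% lower in MIWI -/KI, each against MIWI +/-. In the magnesium transport list, 0 of 21 genes were called in MIWI -/- and 1 in MIWI -/KI, the transporter Nipal1 at 0.59 log2 units (adjusted p = 0.0457 in limma). In the N-glycan list of 24 measured genes, 2 rose and 3 fell in MIWI -/-, while 2 rose and 1 fell in MIWI -/KI. Without 1 array, 0 to 3 rose and 0 to 3 fell in MIWI -/-, and 1 to 5 rose and 0 to 2 fell in MIWI -/KI, with the lowest of each without a MIWI +/- array and the highest without MIWI -/KI replicate 1. Manea rose by 1.06 in MIWI -/- and 1.62 in MIWI -/KI, and the sialyltransferase St3gal4 by 1.00 in MIWI -/- and 1.27 in MIWI -/KI. The branching enzyme Mgat5 fell by 1.05 in MIWI -/- and fell by 0.82 in MIWI -/KI. Mgat4a, another branching enzyme, fell by 1.78 in MIWI -/- and differed by -0.77 in MIWI -/KI, where it was not called.

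Of 18 measured genes for TRH processing and signalling, only Qpct, which forms the N-terminal pyroglutamate of peptides, was called, with a fall of 0.92 in MIWI -/-. In the list of retroviral-like proteases and retrotransposon-derived genes, with 12 measured, the protease Ddi1 fell by 0.80 in MIWI -/- and fell by 0.51 in MIWI -/KI, and Nrip3 rose by 0.97 in MIWI -/KI. Of 20 mitochondrial phospholipid genes, the acyltransferase Lclat1 rose by 0.82 in MIWI -/- and 1.13 in MIWI -/KI, and no other was called. In the MHC class I list of 19, the chaperone Calr rose by 0.53 in MIWI -/- and its testis relative Calr3 fell by 1.21 in MIWI -/- and fell by 0.98 in MIWI -/KI.

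Of 31 spindle genes, 1 rose and 1 fell in MIWI -/-, and 3 rose and 1 fell in MIWI -/KI, beside the shares of all genes given above (2.6% and 3.53% in MIWI -/-, 3.11% and 3.12% in MIWI -/KI). Dlgap5, a spindle protein, rose by 1.38 in MIWI -/- and 1.52 in MIWI -/KI. The proliferation marker Mki67 rose by 1.04 and the BRCA1 partner Bard1 by 0.80 in MIWI -/KI. The microtubule depolymerase Kif2c fell by 1.84 in MIWI -/- and fell by 1.34 in MIWI -/KI. Leaving out MIWI -/KI replicate 1 gave 13 higher in MIWI -/KI and leaving out either MIWI +/- array gave 0. List medians lay between -0.07 and 0.30 log2 units, beside 0.01 (MIWI -/-) and 0.00 (MIWI -/KI) over all genes. In MIWI +/KI against MIWI +/-, and in MIWI -/KI against MIWI -/-, no gene of the 7 lists was called in limma, where 0.0251% of all genes were called higher in MIWI +/KI and 2335 genes in either direction had unadjusted p under 0.05.

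Among the marker lists, that of elongating spermatids also had MIWI +/KI between MIWI +/- and the other genotypes, but with MIWI +/- highest. Whether round or elongating spermatids held these transcripts was not tested. All 13 elongating spermatid markers, among them protamines and tail proteins, were lower in MIWI -/- and in MIWI -/KI (medians -1.46 and -1.44 log2 units; 3.53% and 3.12% of all genes were called lower), and none was called in MIWI +/KI (median -0.34; 0.0702% of all genes called lower). Their summed intensity was 18516 to 19752 in MIWI -/-, 20697 to 21694 in MIWI -/KI, 40738 to 41781 in MIWI +/KI and 52856 to 56202 in MIWI +/-. Under the alternatives other than leaving out an array, 0 to 6 of these markers were called lower in MIWI +/KI. No marker of any list was at 0, since the table holds no 0. Without 1 array, at least 9 were called lower in MIWI -/- and 8 in MIWI -/KI, the lowest counts being those without a MIWI +/- array.

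Sertoli cell markers summed to 1971 to 2564 in MIWI -/-, 1930 to 2426 in MIWI -/KI, 2678 to 3212 in MIWI +/KI and 3350 to 3711 in MIWI +/-, with 3 of 19 lower in MIWI -/- and 4 in MIWI -/KI. Without 1 array the Sertoli counts were 0 to 5 in MIWI -/- and 0 to 9 in MIWI -/KI, with 0 in both genotypes without either MIWI +/- array. The list medians were -0.33 log2 units in MIWI -/-, -0.47 in MIWI -/KI and -0.08 in MIWI +/KI.

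The 12 blood and macrophage markers summed to 1556 to 1572 in MIWI -/-, 1572 to 1691 in MIWI -/KI, 1854 to 1971 in MIWI +/KI and 2420 to 2557 in MIWI +/-, with 3 lower in MIWI -/- and 3 in MIWI -/KI, and 0 in both without either MIWI +/- array. Their median differences were near 0, at -0.03 in MIWI -/-, -0.01 in MIWI -/KI and -0.05 in MIWI +/KI. The 16 peritubular, vascular and stromal markers summed to 2196 to 2700 in MIWI -/-, 2557 to 2598 in MIWI -/KI, 2960 to 3229 in MIWI +/KI and 4051 to 4325 in MIWI +/-, with medians of -0.09 in MIWI -/-, -0.13 in MIWI -/KI and 0.02 in MIWI +/KI. The called members were the smooth muscle actins: Actg2 fell by 2.61 in MIWI -/- and fell by 2.64 in MIWI -/KI, while Acta2 rose by 0.68 in MIWI -/- and 1.13 in MIWI -/KI. The sums of the Sertoli, blood and peritubular lists were highest in MIWI +/-, with MIWI +/KI next, but a sum weighs bright genes most and the medians of the blood and peritubular lists do not follow that order.

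Spermatocyte markers summed to 16246 to 18308 in MIWI -/-, 16520 to 18168 in MIWI -/KI, 15210 to 15522 in MIWI +/KI and 15744 to 16651 in MIWI +/-. Of these 20 genes, 2 were higher and 1 lower in MIWI -/- and likewise in MIWI -/KI. Of 17 round spermatid markers, 1 was higher and 2 were lower in MIWI -/-, and 2 were lower in MIWI -/KI. Tssk6 fell by 3.12 log2 units in MIWI -/- and by 3.26 in MIWI -/KI. Tssk2 fell by 1.00 in MIWI -/- and by 0.99 in MIWI -/KI, while Acr rose by 0.77 in MIWI -/-. Of 14 spermatogonial markers, 1 was higher in each of these genotypes. Of 9 Leydig cell markers none was called, with sums of 686 to 1348 in MIWI -/-, 1013 to 1053 in MIWI -/KI, 578 to 693 in MIWI +/KI and 665 to 777 in MIWI +/-. The Leydig medians were 0.32 log2 units in MIWI -/-, 0.62 in MIWI -/KI and -0.18 in MIWI +/KI. The part of any of these marker lists in the rises of the 7 genes was not tested.

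**Figure D4:**
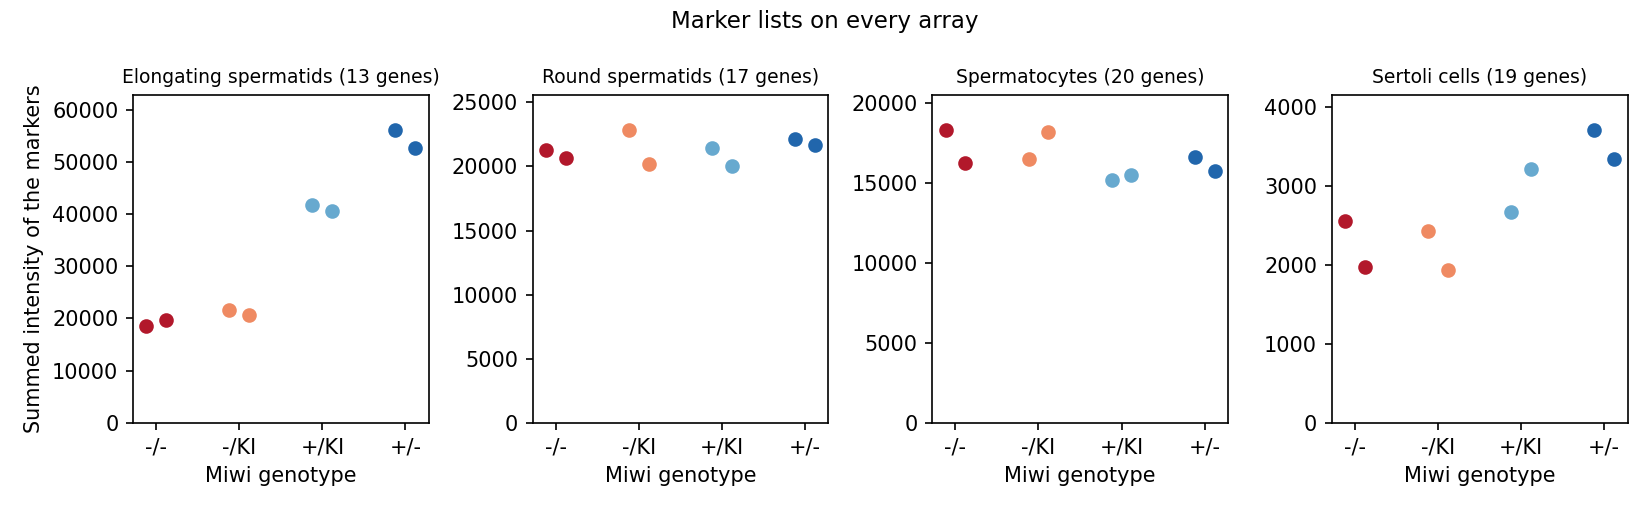
Summed intensity of marker lists on every array, by Miwi genotype, with a point per array and axes from 0. Elongating spermatid sums run from 18516 to 56202 and separate MIWI +/KI from MIWI +/- and from MIWI -/- and MIWI -/KI, while the round spermatid sums all lie between 20027 and 22842, with MIWI -/KI overlapping every other genotype and MIWI +/- above MIWI -/- and MIWI +/KI.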

How the data were processed

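Round spermatid RNA of 4 Miwi genotypes, 2 arrays each, was analysed from the deposited table of linear intensities per transcript cluster, made with RMA per the submitters' processing notes (version not given in the sources used here). The deposited values were put on the log2 scale for all fits. In 8 cells of 8 clusters a lost decimal separator was inferred (the value exceeded the cluster's median elsewhere over 100 times) and the cell was treated as missing; none belongs to the 7 genes. Clusters with 1 platform symbol (21789 of 35512) were kept, and 0 symbols changed through Entrez matching (21698 matched).

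A single linear model in limma 3.58.1 (R 4.3.3) had 1 mean per genotype over all 8 arrays, with a variance trend; two-sided p-values were adjusted by Benjamini-Hochberg across the 35512 clusters, with calls under 0.05. The script was tested on simulated data. The members and lists were chosen with earlier results of these data known. Named genes were the 7, for each the 3 closest in pattern, up to 4 called genes a list, and Piwil1. Pooling of animals is not stated, so p-values cover only the spread of the preparations, and the number of arrays limits precision. Of the table's columns, 0 lay outside the 8 arrays. Alternatives were other handling of the 8 cells, cluster means, centring, a replicate block, no variance trend, array weights, 2-genotype fits, a filter on dim clusters and leaving out each array.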

Additional observations from a re-analysis of the deposited data

How the results depend on the processing

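The 7 genes kept MIWI +/KI between MIWI +/- and both other genotypes under all 12 alternatives computed for that order. Leaving out an array could not break the order, since every array of the 7 genes already held it. Handling of the cells with a lost decimal separator could not either, since none belongs to these genes. For these settings the kept order is therefore no test. The place of MIWI +/KI moved most for Asprv1 (24.1 to 44.5%) and Hmmr (28.2 to 42.8%). Gene counts moved more. In MIWI -/- against MIWI +/-, 1222 genes were called, 2044 with a gene's clusters averaged, and 375 to 2043 without 1 array (lowest without MIWI +/- replicate 2, highest without MIWI -/KI replicate 2). In MIWI -/KI against MIWI +/-, 1243 were called, 1942 with clusters averaged, 746 with array weights, 487 with only these genotypes, and 344 (without MIWI +/- replicate 2) to 2775 (without MIWI -/KI replicate 1). In MIWI +/KI against MIWI +/-, 19 were called, 362 with clusters averaged, 0 with centred arrays (2273 at unadjusted p under 0.05 in limma), 1553 with array weights, 1474 with only these genotypes, 120 with dim clusters left out, 27 and 26 without either MIWI -/KI array and 0 without any other 1 array. In MIWI -/KI against MIWI -/-, 0 were called, 5 with clusters averaged, 2 with no variance trend, 3 with dim clusters left out, 6 without MIWI -/KI replicate 1 and 0 without any other 1 array. The cause was not tested.

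With the replicate number as a block, 1166, 1144, 0 and 0 genes were called in these comparisons (2362 and 883 at unadjusted p under 0.05 in limma for the last pair). Deviations of same-numbered arrays correlated between -0.26 and 0.30, and the labels do not say that a number marks a shared day, litter or batch, so whether the numbers pair arrays is not known.

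Between MIWI -/KI and MIWI -/-, leaving out 1 array turned the sign of Asprv1 (-0.10 to 0.29), Trh (-0.35 to 0.42) and Tapbpl (-0.13 to 0.072). The lowest adjusted p of any of the 7 there was 0.0803, for Hmmr.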
